A study of Homo sapiens with 54 samples.

Results

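The genes of the TGF-beta and BMP pathways were followed in RNA-seq libraries of cells made from H9, an established human embryonic stem cell line, to resemble the medium spiny neurons of the striatum. The 47 genes were taken by name from the per-library tables of 60676 genes. They comprise 7 BMP and GDF ligands (GDF5 and GDF11 among them), 5 TGF-beta and LEFTY ligands, 4 extracellular antagonists, 11 receptors and co-receptors, 6 receptor-activated and common SMADs, 8 inhibitory SMADs, SMURFs and corepressors, the 4 ID genes and 2 further targets, CDKN2B and THBS1. Their names were matched in all 53 libraries that were analysed.

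Ligands of this family bind pairs of type I and type II serine/threonine kinase receptors. BMP ligands act mainly through SMAD1, SMAD5 and SMAD9, and TGF-beta and activin-type ligands through SMAD2 and SMAD3, all of which enter the nucleus with SMAD4. The ID genes, SMAD6, SMAD7 and BAMBI are direct targets, and the last 3 of these switch the pathway off again. In the developing forebrain BMPs pattern the dorsal midline and the pathway as a whole shapes when progenitors leave the cell cycle, and the protocol that made these cells used inhibitors of its receptors and later activin A.

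Dopamine was given at 1 mM or 1 µM as 1 acute exposure or daily over 5 days (chronic), with RNA collected either 1 h or 24 h later, with a PBS group for each concentration. In a time course, 1 mM dopamine was given for 1 h daily over 2, 3, 4 or 5 days against an ascorbic acid (AA) vehicle. The paper's methods give dopamine in ascorbic acid and do not say whether the PBS groups held it. If they did not, dopamine and ascorbic acid cannot be told apart in the comparisons with PBS. In a further experiment the D1-type agonist SKF82958 or the D2-type agonist quinpirole, each at 50 µM, was set against water. Each group had 3 libraries except 5 Day, of which 2 were analysed here. All cells were H9 derivatives with no engineered allele, replicates were separate libraries whose origin in separate differentiations is not stated, and the cultures given chronic dopamine were older when harvested than those given acute dopamine. Both arms of a dose shared 1 PBS group, whose culture age is not stated and which cannot match both. Culture age and repeated dosing therefore cannot be told apart between the arms. For an arm whose age differs from that of PBS, culture age and dopamine cannot be told apart either.

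The labelled cell type was only partly matched by its markers. In the 1 mM PBS libraries the pan-neuronal markers summed to 3472 to 3989 TPM (reads per exon length, scaled to the same total in every library) and the 13 striatal projection neuron markers to 173 to 191 TPM. PPP1R1B, which encodes DARPP-32, lay at 20.3 to 24.5 TPM, whereas the dopamine receptor gene DRD1 lay at 0.619 to 2.35 TPM. Radial glia and astrocyte markers reached 3071 to 3450 TPM and choroid plexus markers 579 to 2871 TPM in the same group, so the libraries represent mixed cultures. In such bulk samples fewer cells of a type and less RNA per cell cannot be told apart.

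Exon reads per library ranged from 13707122 to 21514125 at 1 mM, from 5755919 to 27702963 at 1 µM, from 8449292 to 14303800 in the time course and from 9013284 to 12889245 in 8 of the agonist libraries. The remaining library, replicate 1 of quinpirole, held 137051 exon reads, and 96.7% of its reads lay in introns. Replicate 1 of 1 mM Acute 24h stood apart with the immediate-early gene EGR1 at 695.5 TPM against 27.8 and 25.8 TPM in its group. Replicate 2 of 1 µM PBS had reads on 16085 genes against 21299 and 20989 in the other PBS libraries of that dose. Results that rest on these 3 libraries are given with and without them. At 1 µM, mitochondrial genes held 12.4%, 12.6% and 12.8% of the exon reads in replicate 2 of PBS, Acute 1h and Chronic 1h and 10.3% in replicate 1 of Acute 24h, against 4.25% to 7.50% in the other 1 µM libraries, so counts at that dose are also given without these 4 libraries. As a check of the treatment, the immediate-early genes FOS, FOSB and EGR1 rose at 1 mM Acute 1h by 3.98, 6.77 and 5.01 and at 1 µM Acute 1h by 3.53, 4.39 and 4.35 on the log2 scale.

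The pathway was broadly expressed before any dopamine. Of the 47 genes, 33 had a mean of at least 10 TPM in 1 mM PBS, 29 in 1 µM PBS, 33 in AA and 31 in water. The most abundant in 1 mM PBS were FST, an activin antagonist, at 287 to 302 TPM, ID2 at 225 to 253 TPM, ID4 at 214 to 245 TPM and CHRDL1, a BMP antagonist, at 144 to 197 TPM. FST and ID4 did not overlap in that group, while ID2 overlapped with ID4. FST differed between the control groups, with 26.7 to 53.4 TPM in 1 µM PBS and 293 to 350 TPM in water, but the experiments were run apart and this difference was not tested. BMP5 and LEFTY1 were too low to be tested at 1 µM, and LEFTY1 also in the time course and with the agonists.

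The sequences just before the start sites of 4 genes are shown because these genes rose together after acute 1 mM dopamine and include direct BMP targets. Each runs 5′ to 3′ over the 250 bases before the start site, from RefSeq on GRCh38.p14. ID1 lies at chr20:31605039-31605288 on the plus strand, ID3 at chr1:23559502-23559751 on the minus strand, BAMBI at chr10:28677271-28677520 on the plus strand and SMAD6 at chr15:66701986-66702235 on the plus strand. Capitals mark, on either strand, the letters TGACG (core of a cAMP response element), GGCGCC (a GC-rich SMAD1/5 element), GTCTAGAC (a SMAD box), CAGAC (a SMAD3/4 element) and GCGNGGGCG (an EGR element). TGACGTCA, the full cAMP response element that contains TGACG, and TGANTCA, an AP-1 element, were searched too and lie in none of the 4.
ID1: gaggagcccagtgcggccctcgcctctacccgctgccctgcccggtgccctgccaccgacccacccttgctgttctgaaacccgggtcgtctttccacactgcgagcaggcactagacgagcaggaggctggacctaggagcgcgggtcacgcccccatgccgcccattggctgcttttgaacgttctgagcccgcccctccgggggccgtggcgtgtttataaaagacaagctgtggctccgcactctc
ID3: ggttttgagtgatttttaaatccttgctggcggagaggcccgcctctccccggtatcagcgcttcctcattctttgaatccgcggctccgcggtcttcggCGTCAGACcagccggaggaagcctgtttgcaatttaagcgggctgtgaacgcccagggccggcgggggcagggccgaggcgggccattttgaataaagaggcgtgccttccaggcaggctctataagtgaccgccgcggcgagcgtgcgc
BAMBI: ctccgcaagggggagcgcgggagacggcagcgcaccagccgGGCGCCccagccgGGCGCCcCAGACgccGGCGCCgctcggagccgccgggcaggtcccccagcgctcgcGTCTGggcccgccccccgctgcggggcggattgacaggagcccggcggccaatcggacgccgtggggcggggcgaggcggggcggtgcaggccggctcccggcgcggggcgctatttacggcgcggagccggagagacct
SMAD6: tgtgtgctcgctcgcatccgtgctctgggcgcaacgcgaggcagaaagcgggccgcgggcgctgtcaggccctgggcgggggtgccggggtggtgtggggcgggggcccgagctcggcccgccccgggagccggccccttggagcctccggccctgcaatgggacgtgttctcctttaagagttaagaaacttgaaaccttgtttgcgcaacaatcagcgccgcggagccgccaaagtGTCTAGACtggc

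Of the 47 genes, 41 had a promoter in the RefSeq set. In the ID3 promoter, TGACG and CAGAC overlap in 1 run that starts 150 bases before the start site. BAMBI holds GGCGCC 3 times and CAGAC on 2 occasions, SMAD6 holds GTCTAGAC 12 bases before its start, and ID1 holds none of these letter strings in this window. TGACG occurs in 6 of the 41 promoters (14.6%) and in 21.7% of all 27305 promoters. GGCGCC occurs in 9 (22.0%) and in 16.1% of all, CAGAC in 16 (39.0%) and in 37.8% of all, and GCGNGGGCG in 9 (22.0%) and in 8.25% of all. GTCTAGAC occurs in 1 and in 0.176% of all, TGACGTCA in 1 (SKIL) and in 1.77% of all, and TGANTCA in 2 and in 6.6% of all. These matches describe letters and not binding.

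Within 1 h of a single exposure to 1 mM dopamine, 5 of the 7 BMP and GDF ligand genes and 3 of the 4 ID genes rose. Of the 47 genes, 13 were higher and 2 lower at an adjusted p under 0.05 in edgeR's quasi-likelihood test, together 15, where 16.0% of all 17804 genes tested passed (8.04% higher, 7.94% lower). Their median log2 fold change was 0.19, against 0.01 over all genes tested. The genes called higher were CDKN2B, ID3, ID1, BMP2, BAMBI, BMP4, THBS1, BMP6, TGIF1, GDF5, SMAD6, ID4 and BMP7, and those called lower were CHRDL1 and ACVR2A. In a fit without the 24 h library that stands apart, which is no part of this comparison but sets the shared spread, 22 were higher and 5 lower, together 27, with 39.8% of all genes called.

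Among the ID genes, which encode inhibitors of basic helix-loop-helix factors, ID1 had 135, 99.9 and 117 TPM in PBS and 407, 435 and 459 TPM 1 h after dopamine. ID3 had 48.2, 47.3 and 52.3 TPM in PBS and 216, 202 and 210 TPM after dopamine. Every treated library lay above every PBS library for both genes. ID1 rose by 1.95 ± 0.35 (SE) on the log2 scale (adjusted p = 0.0034) and ID3 by 2.15 ± 0.18 (adjusted p = 2.4e-05).

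ID4 also rose, from 245, 234 and 214 TPM to 430, 402 and 411 TPM, again without overlap (log2 fold change 0.91 ± 0.10, adjusted p = 0.00017). ID2 had 236, 225 and 253 TPM in PBS and 226, 240 and 226 TPM after dopamine. These libraries overlapped, and the log2 fold change of 0.02 ± 0.16 (adjusted p = 0.96) did not pass. The plot of the ID genes by library shows both patterns.

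**Figure D1:**
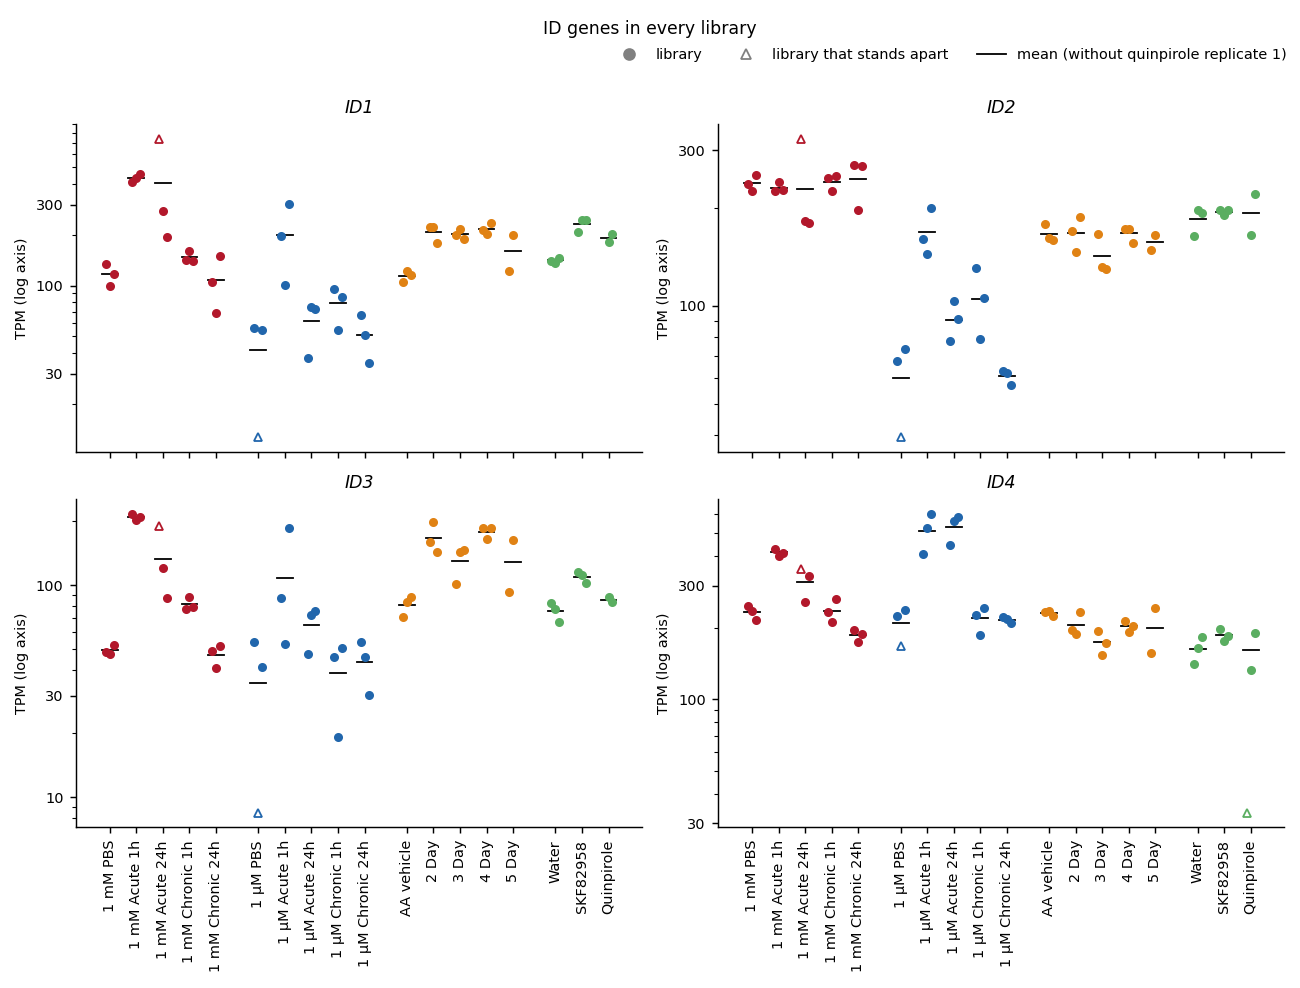
Level of the 4 ID genes in TPM (vertical log axis) in every library of every group (horizontal axis, coloured by experiment), with the group mean as a line and open triangles for the 3 libraries that stand apart. ID1, ID3 and ID4 in the 1 mM Acute 1h libraries lie above all 1 mM PBS libraries while ID2 overlaps them; replicate 1 of quinpirole is at 0 TPM for ID1, ID2 and ID3 and so is not drawn there.

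Of the 7 BMP and GDF ligand genes, 5 rose and none fell. BMP2 had 8.69, 7.54 and 7.11 TPM in PBS and 22.3, 24.7 and 26.5 TPM after dopamine (log2 fold change 1.72 ± 0.19, adjusted p = 0.00017). BMP4 went from 5.19, 7.14 and 7.25 TPM to 11.9, 18.3 and 21.1 TPM (1.45 ± 0.30, adjusted p = 0.0063). For both genes, whose products are classical dorsal patterning signals, the lowest treated library lay above the highest PBS library.

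BMP6 rose from 15.7, 11.0 and 20.5 TPM to 34.2, 35.9 and 40.1 TPM (log2 fold change 1.29 ± 0.37, adjusted p = 0.031). GDF5, a BMP-type ligand best known from joint formation, rose from 5.91, 6.46 and 5.59 TPM to 12.7, 11.0 and 13.7 TPM (1.12 ± 0.25, adjusted p = 0.010). BMP7 was the most abundant ligand of the group and moved less, from 88.9, 90.3 and 84.5 TPM to 136, 122 and 135 TPM (0.64 ± 0.18, adjusted p = 0.027). Treated and PBS libraries did not overlap for any of these 3 genes. GDF11 and BMP5 did not pass, with log2 fold changes of 0.35 ± 0.23 and -0.69 ± 0.83.

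None of the 5 TGF-beta and LEFTY genes was called in this comparison by edgeR's quasi-likelihood test. At an unadjusted p under 0.05, 1 passed, and that was TGFB3, which had 13.0, 11.2 and 12.7 TPM in PBS and 25.1, 22.2 and 25.7 TPM after dopamine. Its libraries did not overlap, yet the log2 fold change of 1.05 ± 0.38 had an adjusted p of 0.079. Without the 24 h library that stands apart the value was 1.04 ± 0.25 and passed (adjusted p = 0.0045). TGFB1 had 21.6, 21 and 20.2 TPM and then 22.4, 17.9 and 17.9 TPM, an overlap with a log2 fold change of -0.04 ± 0.18.

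Feedback inhibitors were split. BAMBI, a pseudoreceptor without a kinase domain, rose from 34.9, 36.9 and 31.1 TPM to 96.7, 104 and 99.5 TPM (log2 fold change 1.61 ± 0.24, adjusted p = 0.0011). SMAD6, which blocks BMP receptors, rose from 6.83, 5.35 and 6.35 TPM to 12.3, 11.4 and 13.3 TPM (1.06 ± 0.28, adjusted p = 0.023). Neither gene had a treated library within the PBS range.

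SMAD7, which blocks both branches, had 18.5, 17 and 17.6 TPM in PBS and 25.1, 29.2 and 24.8 TPM after dopamine. Although its libraries did not overlap, the log2 fold change of 0.64 ± 0.46 did not pass (adjusted p = 0.38), whereas in the fit without the 24 h library it was 0.62 ± 0.10 and passed (adjusted p = 0.00028). That library alone held 144 TPM of SMAD7. SKIL, a corepressor of SMAD complexes, had 37.4, 39.3 and 40.0 TPM and then 41.3, 43.0 and 46.0 TPM, with log2 fold changes of 0.22 ± 0.38 and, without that library, 0.21 ± 0.07 (adjusted p = 0.024).

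TGIF1, a homeobox corepressor of SMAD2 and SMAD3, rose from 17.1, 17.6 and 17.6 TPM to 36.7, 40.4 and 37.8 TPM (log2 fold change 1.20 ± 0.15, adjusted p = 0.00041). CDKN2B, a cyclin-dependent kinase inhibitor induced by TGF-beta in many cells, had 6.62, 7.09 and 8.34 TPM in PBS and 42.0, 34.7 and 39.2 TPM after dopamine (2.46 ± 0.32, adjusted p = 0.00042). THBS1 encodes thrombospondin-1, an extracellular protein that can free TGF-beta from its latent form, and went from 17.4, 19.1 and 26.0 TPM to 62.6, 42.3 and 47.5 TPM (1.35 ± 0.20, adjusted p = 0.0012). For all 3 genes the groups were separate, and CDKN2B had the largest log2 fold change of the 47 genes in this comparison.

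Among antagonists and receptors 2 genes fell and, BAMBI apart, none rose. CHRDL1, a chordin-like BMP antagonist, had 144, 179 and 197 TPM in PBS and 91.5, 99.2 and 74.9 TPM after dopamine (log2 fold change -0.91 ± 0.21, adjusted p = 0.012). ACVR2A, a type II receptor for activins and BMPs, had 58.8, 63.4 and 59.9 TPM and then 42.3, 41.8 and 42.5 TPM (-0.46 ± 0.11, adjusted p = 0.012). All treated libraries lay below all PBS libraries for both. The type I receptor gene ACVR1C went from 1.98, 3.25 and 2.73 TPM to 0.841, 1.37 and 0.996 TPM and did not pass (-1.25 ± 0.42, adjusted p = 0.057), and none of the 6 receptor-activated and common SMADs was called, while 1 of them, SMAD3, had an unadjusted p under 0.05.

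Summed levels of 10 lists of cell type markers were read beside each comparison. At 1 mM Acute 1h, 2 lists were lower than in PBS without overlap. The striatal projection neuron markers summed to 147 to 157 TPM against 173 to 191 TPM, and the 4 markers of medial ganglionic eminence (MGE) interneurons to 25.1 to 34.0 TPM against 34.2 to 62.0 TPM. The other 8 lists overlapped. Among these the 6 choroid plexus markers summed to 436 to 1349 TPM against 579 to 2871 TPM in PBS. The 8 mesenchymal markers summed to 77.3 to 87.1 TPM against 60.6 to 101 TPM, and the 6 cycling markers to 730 to 795 TPM against 784.5 to 818.5 TPM. No marker of these 5 lists was at 0 in all libraries of either group, although LHX8, an MGE marker, had a median of 0 TPM in PBS. The share of reads in introns was 12.3% to 13.2% against 19.5% to 21.8% in PBS, and it was 20.6% to 20.9% in Chronic 1h. The part of these measures in the result was not tested.

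A day after the single 1 mM dose, 9 genes were higher and 3 lower, together 12, against 15.5% of all genes (8.38% higher, 7.09% lower). Without replicate 1 of Acute 24h, 17 were higher and 6 lower, together 23, against 22.3% of all genes. CDKN2B, ID1, ID3, BAMBI, TGIF1, BMP4, GDF5, SMAD6 and SMAD7 were called higher and GREM1, CHRDL1 and THBS1 lower in both fits. The median log2 fold change of the 47 genes was 0.30, against 0.02 over all genes, and 0.17 without replicate 1.

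CDKN2B was still at 37.4, 42.5 and 28.0 TPM after 24 h, above all PBS libraries (log2 fold change 2.17 ± 0.31, adjusted p = 0.0019). ID1 had 737, 276 and 194 TPM and ID3 189, 120 and 87.5 TPM, where the library with the highest value is the one that stands apart. Their log2 fold changes were 1.60 ± 0.35 and 1.28 ± 0.18 with that library and 0.95 ± 0.21 and 1.02 ± 0.12 without it. BAMBI had 133, 64.7 and 53.7 TPM (1.13 ± 0.23, and 0.74 ± 0.15 without it) and TGIF1 58.1, 32.9 and 30.8 TPM (1.07 ± 0.15, and 0.82 ± 0.09 without it). For each of these genes the remaining libraries also lay above the PBS range.

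SMAD7 showed the largest dependence on that library. It had 144, 26.2 and 23.8 TPM after 24 h, with a log2 fold change of 1.67 ± 0.47 (adjusted p = 0.033) that became 0.45 ± 0.11 (adjusted p = 0.012) without replicate 1. SMAD6 followed with 23.7, 9.99 and 8.98 TPM (1.03 ± 0.28, and 0.57 ± 0.19 without it). Replicate 1 was also high for genes that were not called, among them the receptor gene ACVR1 at 176 TPM against 40.4 and 38.8 TPM, SKIL at 205 against 47.4 and 44.7 TPM, and SMAD1 at 82.4 against 24.1 and 26.3 TPM. In the same library the cycling markers summed to 233 TPM and the neuronal markers to 1641 TPM, against at least 799.2 and 2997 TPM in the other libraries of its group. Over the whole group 2 of the 10 marker lists were separate from PBS, the neuronal markers at 1641 to 3227 TPM against 3472 to 3989 TPM and the endothelial markers at 2.41 to 10.95 TPM against 11.1 to 23.4 TPM, and introns held 12.5% to 15.9% of reads against 19.5% to 21.8%. Their part in the 24 h values was not tested.

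THBS1 crossed from higher to lower within the day. It had 14.9, 13.2 and 11.6 TPM at 24 h, below every PBS library (log2 fold change -0.78 ± 0.20, adjusted p = 0.025), and against Acute 1h it fell by 2.13 ± 0.21 on the log2 scale (adjusted p = 0.00019). GREM1, a secreted BMP antagonist, had 8.54, 10.1 and 7.81 TPM in PBS, 7.45, 5.55 and 5.17 TPM at 1 h and 1.07, 2.73 and 2.19 TPM at 24 h. The 24 h libraries lay below all others, with a log2 fold change of -2.20 ± 0.27 against PBS (adjusted p = 0.00096). CHRDL1 was at 59.6, 69.6 and 75.1 TPM, a log2 fold change of -1.46 ± 0.21 (adjusted p = 0.0020), so 2 of the 4 antagonists were lower a day after dopamine. The other two, FST and the noggin gene NOG, overlapped with PBS, with log2 fold changes of 0.18 ± 0.22 and 0.37 ± 0.29 that did not pass.

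Between 1 h and 24 h after the single 1 mM dose, 5 of the 47 genes fell and none rose, where 3.49% of all genes passed. Beside THBS1 and GREM1 these were BMP2, ID3 and ID4. BMP2 was at 13.7, 13.6 and 9.97 TPM at 24 h and fell by 1.17 ± 0.18 on the log2 scale (adjusted p = 0.0065). ID4 was at 352, 255 and 329 TPM and fell by 0.60 ± 0.10 (adjusted p = 0.0098). Every 24 h library of BMP2 and ID4 lay below the lowest 1 h library. Without replicate 1 of Acute 24h, 11 genes passed, 2 higher (SMURF2 and BMPR2) and 9 lower. The share of all genes that passed in that fit is not given, so its count cannot be set against the first. Striatal projection neuron markers were higher at 24 h than at 1 h (168.5 to 231.8 TPM against 146.6 to 157.2 TPM). Endothelial markers were lower (2.41 to 10.95 TPM against 11.35 to 12.9 TPM), and the part of both lists was not tested.

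After daily 1 mM dopamine over 5 days, 1 h after the last dose, 2 of the 47 genes were higher and none lower, against 2.08% of all genes. In the fit without the 24 h library that stands apart, 5 were higher and 8 lower, together 13, against 18.4% of all genes. With any 1 library of these groups left out the count was 0 or 1, so the calls below rest on all 6 libraries. BAMBI had 64.6, 73.2 and 72.8 TPM, above all PBS libraries and below all Acute 1h libraries (log2 fold change against PBS 0.99 ± 0.23, adjusted p = 0.047). TGIF1 had 28.7, 33.3 and 32.6 TPM (0.81 ± 0.15, adjusted p = 0.018), which placed it in the same order. TGIF1 kept its call without Chronic 1h replicate 1 and lost it without any of the others, while BAMBI lost it in every case. Of the marker lists 4 were separate from PBS. Cycling markers were lower (556 to 592 TPM against 784.5 to 818.5 TPM), as were striatal projection neuron (150 to 168 TPM against 173 to 191 TPM) and radial glia markers (2840 to 2978 TPM against 3071 to 3450 TPM), while neural crest markers were higher (129 to 138 TPM against 84.7 to 96.9 TPM). Their part in these values was not tested.

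ID1 and ID4 lay close to PBS in this group, while ID3 lay above it. ID1 had 142, 159 and 139 TPM, just above the PBS libraries (log2 fold change 0.28 ± 0.35), and ID4 had 232, 210 and 264 TPM, within reach of PBS (-0.02 ± 0.10). ID3 had 77.2, 87.5 and 78.6 TPM, also above PBS (0.67 ± 0.18), and passed only in the fit without the 24 h library (adjusted p = 0.0010, against 0.067). At the same time FOS rose by 3.29 ± 0.47 and EGR1 by 4.32 ± 0.95 on the log2 scale against PBS. In the time course, set against AA and not PBS, ID1 and ID3 were called higher at 5 Day, as given below.

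The direct comparison of Chronic 1h with Acute 1h called 2 of the 47 genes higher and 13 lower, together 15, against 11.3% of all genes. Without the 24 h library, 4 were higher and 28 lower, together 32, against 34.0%. The median log2 difference over the 47 genes was -0.33, against 0.01 over all genes tested. ID1 was lower by a log2 difference of -1.67 ± 0.35 (adjusted p = 0.0087), ID3 by -1.48 ± 0.17 (adjusted p = 0.00034) and ID4 by -0.92 ± 0.10 (adjusted p = 0.00020).

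The ligands BMP2, BMP4, BMP7 and GDF5 were lower in Chronic 1h as well. BMP2 had 10.5, 13.1 and 13.1 TPM (-1.11 ± 0.18, adjusted p = 0.0020) and GDF5 4.33, 5.13 and 5.53 TPM (-1.43 ± 0.26, adjusted p = 0.0034), both below all Acute 1h libraries. CDKN2B had 11.52, 17.2 and 12.8 TPM (-1.59 ± 0.30, adjusted p = 0.0050) and SMAD6 5.98, 5.90 and 4.30 TPM (-1.30 ± 0.29, adjusted p = 0.011). THBS1, TGFBR1, SMAD3 and TGIF2 were the other genes called lower. The antagonists GREM1, with 15.0, 12.3 and 14.6 TPM (1.10 ± 0.26, adjusted p = 0.015), and CHRDL1, with 191, 165 and 173 TPM (0.89 ± 0.21, adjusted p = 0.017), were called higher. Between these groups 3 marker lists were separate. Cycling markers summed to 556 to 592 TPM in Chronic 1h and 730 to 795 TPM in Acute 1h, radial glia markers to 2840 to 2978 TPM and 3143 to 3444 TPM, and neural crest markers to 129 to 138 TPM and 90.6 to 103 TPM. The share of reads in introns was 20.6% to 20.9% in Chronic 1h and 12.3% to 13.2% in Acute 1h. The part of these measures in the differences was not tested.

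**Figure D2:**
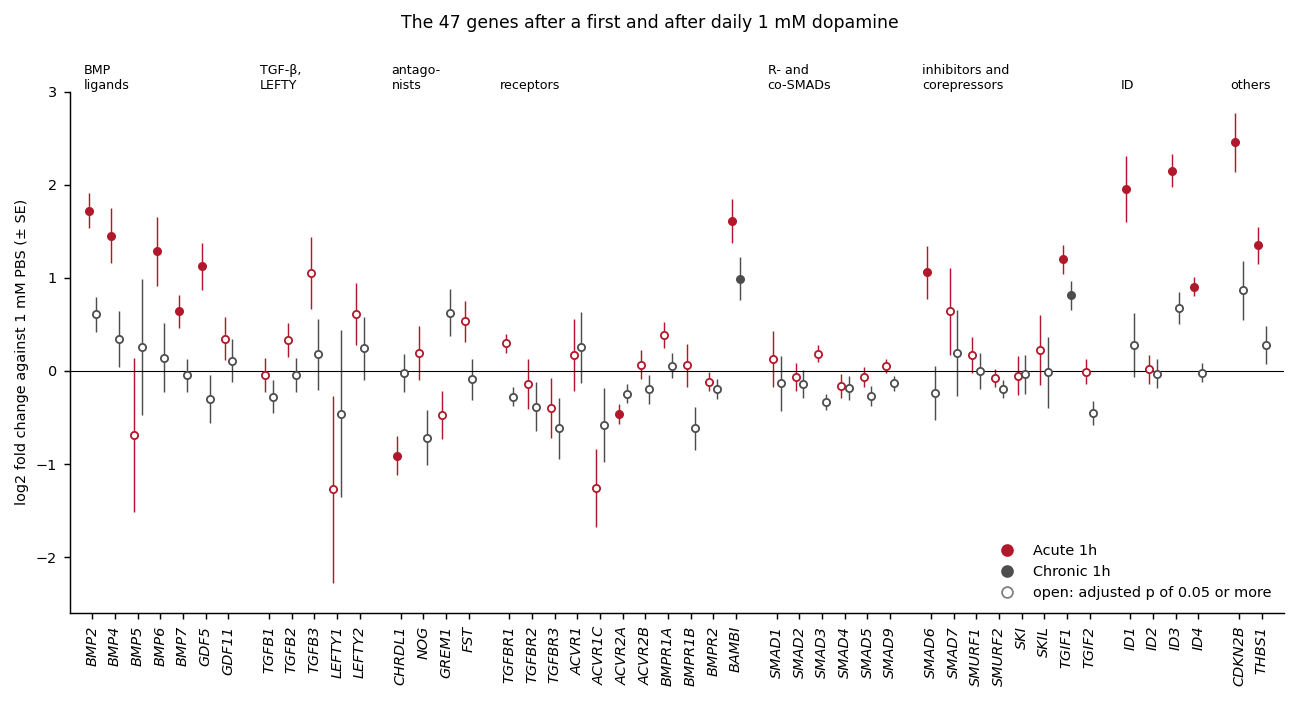
Log2 fold change against 1 mM PBS (vertical axis, ± SE of the fit) of the 47 genes, grouped by role along the horizontal axis, at Acute 1h (red) and Chronic 1h (grey), each from 3 libraries a group; open points had an adjusted p of 0.05 or more. Filled red points, 15 in all, lie mostly among the BMP and GDF ligands, ID genes and other targets, and 2 grey points are filled, those of BAMBI and TGIF1.

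At 24 h after the last chronic 1 mM dose, 1 gene was called, lower, against 0.663% of all genes. This was TGIF2, a paralogue of TGIF1, with 22.5, 19.5 and 25.2 TPM against 40.7, 33.6 and 32.0 TPM in PBS (log2 fold change -0.69 ± 0.13, adjusted p = 0.036), a fall without overlap. Without the 24 h acute library, 2 were higher and 5 lower, together 7, against 8.48% of all genes, and CDKN2B was among the higher (1.09 ± 0.31, adjusted p = 0.038). CDKN2B had 12.3, 9.26 and 26.5 TPM there, so its mean leaned on replicate 3. Of the marker lists 3 were separate from PBS. Cycling markers were lower (570 to 647 TPM against 784.5 to 818.5 TPM), as were radial glia markers (2491 to 2690 TPM against 3071 to 3450 TPM). Neural crest markers were higher (114 to 138 TPM against 84.7 to 96.9 TPM). Their part in these values was not tested.

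At 1 µM the ID genes, SMAD7, NOG, TGIF1 and TGFBR1 were higher 1 h after the acute dose. Of 45 genes tested, 8 were higher and 2 lower, together 10, against 5.77% of all 16541 genes (3.25% higher, 2.52% lower), with a median log2 fold change of 0.12 against 0.02. Without replicate 2 of 1 µM PBS, 7 were higher and 1 lower, together 8, against 4.21% of all genes. Without the 4 libraries rich in mitochondrial reads 17 genes passed, against 14.0% of all genes, and with only the 2 groups compared in the fit 2 passed. None of the 6 BMP and GDF ligands tested was called, while 1 had an unadjusted p under 0.05, and without the 4 libraries GDF11 passed (0.36 ± 0.10, adjusted p = 0.026).

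All 4 ID genes rose at 1 µM Acute 1h, of which ID2 and ID4 alone kept the call with only the 2 groups compared in the fit. ID2 had 67.4, 39.4 and 73.5 TPM in PBS and 161, 144 and 200 TPM after dopamine (log2 fold change 1.53 ± 0.15, adjusted p = 4.2e-05). ID4 had 223, 167 and 237 TPM and then 407, 523 and 600 TPM (1.32 ± 0.14, adjusted p = 7.2e-05). Both were separate from PBS in every library.

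ID1 had 56.4, 12.7 and 54.9 TPM in PBS and 197, 100 and 303 TPM after dopamine, also without overlap. Its log2 fold change was 2.33 ± 0.39 (adjusted p = 0.0029), and 1.95 ± 0.34 without PBS replicate 2 (adjusted p = 0.0060). ID3 had 53.7, 8.45 and 41.2 TPM and then 87.2, 53.0 and 186 TPM, so that the lowest treated library lay just under the highest PBS library. Its log2 fold change of 1.72 ± 0.45 passed (adjusted p = 0.037) and without PBS replicate 2 it was 1.30 ± 0.38 and did not (adjusted p = 0.072). Replicate 2 was the lowest library for ID1 and ID3 in PBS, Acute 1h and Chronic 1h alike, and in all 3 it was rich in mitochondrial reads. With the 4 libraries of that kind left out, the log2 fold changes were 2.21 ± 0.22 for ID1 and 1.57 ± 0.26 for ID3, and both passed (adjusted p = 1.4e-05 and 0.0013).

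SMAD7 had 8.05, 7.08 and 9.84 TPM in 1 µM PBS and 24.7, 18.9 and 46.8 TPM 1 h after dopamine (log2 fold change 1.83 ± 0.23, adjusted p = 0.00034). NOG, which encodes the BMP antagonist noggin, had 23.5, 6.26 and 20.6 TPM and then 45.2, 35.5 and 75.7 TPM (1.70 ± 0.32, adjusted p = 0.0056). Neither gene overlapped between the groups. TGIF1 rose from 13.9, 6.31 and 14.8 TPM to 21.5, 17 and 29.9 TPM (1.01 ± 0.20, adjusted p = 0.0073), and the type I receptor gene TGFBR1 rose by 0.63 ± 0.17 (adjusted p = 0.049), a call that was lost without PBS replicate 2 (adjusted p = 0.080).

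The members called lower at 1 µM Acute 1h were TGFB1 and SMAD9. TGFB1, the prototype ligand of the family, had 34.6, 31.8 and 33.0 TPM in PBS and 13.3, 5.57 and 15.2 TPM after dopamine, every treated library below PBS (log2 fold change -1.59 ± 0.24, adjusted p = 0.0012). SMAD9 had 43.0, 36.2 and 39.6 TPM and then 23.4, 24.9 and 25.1 TPM (-0.67 ± 0.15, adjusted p = 0.020, and 0.062 without PBS replicate 2). THBS1 was low at this dose, with 2.31, 0 and 1.32 TPM in PBS and 5.70, 5.80 and 4.96 TPM after dopamine. It did not overlap, and passed without PBS replicate 2 (1.78 ± 0.37, adjusted p = 0.015) but not with it (2.36 ± 0.68, adjusted p = 0.057). All 3 passed without the 4 libraries rich in mitochondrial reads (TGFB1 -1.19 ± 0.18, SMAD9 -0.72 ± 0.13 and THBS1 1.60 ± 0.33).

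Of the 10 marker lists 4 were lower at 1 µM Acute 1h than in PBS without overlap. Choroid plexus markers summed to 1160 to 1545 TPM against 2113 to 2682 TPM and cycling markers to 918 to 1070 TPM against 1120 to 1414 TPM. Neural crest markers, of which FOXD3 was at 0 in both groups, summed to 26.8 to 29.4 TPM against 31.2 to 39.8 TPM, and MGE interneuron markers, of which NKX2-1 was at 0 in PBS, to 0.371 to 1.93 TPM against 2.74 to 3.53 TPM. Their part in these values was not tested.

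At 1 µM Acute 24h, 3 genes were higher and 5 lower, together 8, against 3.31% of all genes (1.40% higher, 1.91% lower). Without PBS replicate 2, 2 were higher and 2 lower, together 4, against 1.56%, and without the 4 libraries rich in mitochondrial reads 10 genes passed against 10.2%. The genes called higher were ID4, ID2 and GDF11, and those called lower TGFB1, FST, GREM1, ACVR1C and SMAD9. ID4 was at 444, 563 and 584 TPM, as high as at 1 h (log2 fold change against PBS 1.30 ± 0.14, adjusted p = 0.00019). ID1 and SMAD7, at 37.2, 74.7 and 73.2 TPM and 8.38, 8.55 and 9.04 TPM, overlapped with PBS and did not pass.

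TGFB1 was still low at 24 h, with 11.4, 12.3 and 16.1 TPM (-1.39 ± 0.23, adjusted p = 0.0056). FST had 52.0, 26.7 and 53.4 TPM in PBS and 20.5, 17.8 and 17.1 TPM at 24 h (-1.25 ± 0.24, adjusted p = 0.012), below all PBS libraries. GREM1 had 4.88, 4.21 and 4.58 TPM and then 1.95, 1.64 and 1.46 TPM (-1.48 ± 0.34, adjusted p = 0.030, and 0.090 without PBS replicate 2). ACVR1C had 1.23, 1.69 and 1.91 TPM and then 0.354, 0.669 and 0.511 TPM (-1.73 ± 0.45, adjusted p = 0.049, and 0.13 without that library). GREM1 passed (-1.59 ± 0.21, adjusted p = 0.00045) and ACVR1C did not without the 4 libraries rich in mitochondrial reads. Of the marker lists 4 were separate from PBS. Choroid plexus markers were lower (1591 to 2087 TPM against 2113 to 2682 TPM), as were mesenchymal (57.8 to 67.2 TPM against 84.7 to 93.3 TPM, with TWIST1 at 0 at 24 h) and radial glia markers (2831 to 3256 TPM against 3264 to 4268 TPM), while striatal projection neuron markers were higher (132 to 139.5 TPM against 103 to 120 TPM). Their part in these values was not tested.

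From 1 h to 24 h after the single 1 µM dose, 4 genes fell and none rose, against 0.592% of all genes. These were SMAD7 (log2 difference -1.82 ± 0.23, adjusted p = 0.0011), FST (-1.37 ± 0.24, adjusted p = 0.015), SKIL (-1.23 ± 0.25, adjusted p = 0.042) and ID2 (-0.95 ± 0.15, adjusted p = 0.0062). Without the 4 libraries rich in mitochondrial reads 9 genes fell, against 3.61%, ID1 among them (-1.79 ± 0.21, adjusted p = 0.00018). Cycling, choroid plexus and striatal projection neuron markers were all higher at 24 h than at 1 h without overlap, and their part was not tested.

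After daily 1 µM dopamine, 1 h after the last dose, 2 genes were higher and none lower, against 2.58% of all genes, and without PBS replicate 2 the count was 3 against 1.40%. Without the 4 libraries rich in mitochondrial reads it was 8 against 9.86%. SMAD7 had 23.5, 13.4 and 19.8 TPM (log2 fold change 1.21 ± 0.23, adjusted p = 0.012) and ID2 130, 79.1 and 105 TPM (0.87 ± 0.15, adjusted p = 0.0060), both above all PBS libraries. THBS1, with 5.46, 5.71 and 4.32 TPM, was the gene added without PBS replicate 2 (1.74 ± 0.36, adjusted p = 0.031). Neural crest markers were lower than in PBS without overlap (26.38 to 29.55 TPM against 31.16 to 39.79 TPM), and their part was not tested. Against Acute 1h, 1 gene was higher and 3 lower, together 4, where 1.20% of all genes passed. TGFB1 was higher (1.27 ± 0.24, adjusted p = 0.020), and ID4 (-1.21 ± 0.14, adjusted p = 0.0017), ACVR2B (-0.68 ± 0.11, adjusted p = 0.011) and ID2 (-0.66 ± 0.14, adjusted p = 0.041) were lower. Leaving out the 4 libraries, 8 passed against 6.39%, and ID1 (-1.44 ± 0.20, adjusted p = 0.0013) and ID3 (-1.47 ± 0.26, adjusted p = 0.0047) were then lower too. Cycling, choroid plexus and MGE interneuron markers were higher in Chronic 1h than in Acute 1h and striatal projection neuron markers lower, each without overlap, and their part was not tested. At 24 h after the last 1 µM dose edgeR's quasi-likelihood test called none of the 45 genes, with 0% of all genes called, with or without PBS replicate 2 or the 4 libraries. At an unadjusted p under 0.05, 1 of the 45 and 608 of all genes passed, and DESeq2 called 1 gene, which was no member.

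The change at 1 h was compared between the doses by subtracting the 1 µM change from the 1 mM change in 1 fit over both experiments, so dose and experiment cannot be told apart. At Acute 1h 6 of the genes differed, 5 with a positive and 1 with a negative difference, against 2.01% of all genes, and 11 without the 24 h library against 5.10%. Without the 4 1 µM libraries rich in mitochondrial reads 8 differed, against 3.21%. ID2 differed by -1.49 ± 0.22 on the log2 scale (adjusted p = 0.00038), since it rose at 1 µM and stayed within the PBS range at 1 mM. CDKN2B differed by 2.30 ± 0.48 (adjusted p = 0.010) and BMP2 by 1.59 ± 0.30 (adjusted p = 0.0046), both with overlapping groups at 1 µM. TGFB1 (1.56 ± 0.31, adjusted p = 0.0063) and SMAD9 (0.75 ± 0.17, adjusted p = 0.018) differed through their fall at 1 µM.

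LEFTY2, a secreted inhibitor of nodal, also differed between the doses (3.00 ± 0.69, adjusted p = 0.021). It had 3.00, 4.04 and 3.71 TPM in 1 mM PBS and 6.21, 5.02 and 4.44 TPM at 1 mM Acute 1h, against 2.44, 1.60 and 1.59 TPM and 0, 0.528 and 0.397 TPM at 1 µM. The 1 µM values rest on 15, 11 and 9 exon reads in PBS and 0, 3 and 2 after dopamine, so the size of the difference is poorly resolved. The treated libraries lay above PBS at 1 mM and below it at 1 µM, and neither change passed by itself. For ID1, ID3 and ID4 the difference of -0.35 ± 0.53, 0.46 ± 0.49 and -0.39 ± 0.17 did not pass (adjusted p = 0.83, 0.74 and 0.25), with errors wide enough to leave large differences undetected for ID1 and ID3. At Chronic 1h none of the genes differed by edgeR's quasi-likelihood test, where 0.0870% of all genes did. At an unadjusted p under 0.05 5 of them passed, DESeq2 called 3, and without the 24 h library 2 passed against 0.709% of all genes, and without the 4 mitochondrial-rich libraries 1 passed against 0.243%.

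In the time course of daily 1 mM dopamine, ID1 and ID3 were higher at each of the 4 time points. ID1 had 105, 122 and 115 TPM in AA, 221, 222 and 178 TPM at 2 Day, 199, 217 and 190 TPM at 3 Day, 214, 201 and 234 TPM at 4 Day and 122 and 200 TPM at 5 Day. Its log2 fold changes were 1.00 ± 0.11 (adjusted p = 0.00018), 0.93 ± 0.11 (0.00019), 0.95 ± 0.11 (0.00025) and 0.61 ± 0.12 (0.023), with 5 Day resting on 2 libraries. Every treated library lay above every AA library, though 1 of the 5 Day libraries only just.

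ID3 had 70.7, 83.4 and 87.8 TPM in AA, 160, 198 and 144 TPM at 2 Day, 101.8, 143 and 147 TPM at 3 Day, 186, 165 and 185 TPM at 4 Day and 92.6 and 164 TPM at 5 Day. Every treated library lay above every AA library, with log2 fold changes of 1.19 ± 0.16, 0.80 ± 0.16, 1.17 ± 0.16 and 0.77 ± 0.18. ID2 did not pass at any of these times, and ID4 was lower at 3 Day only, by 0.31 ± 0.09 on the log2 scale (adjusted p = 0.037), with 194, 154 and 173 TPM against 232, 236 and 223 TPM in AA. Whether the ID4 change differed between days was not tested. The 4 comparisons share the AA libraries.

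Counts of calls were highest at 3 Day. At 2 Day 5 of the 46 genes tested were higher and 1 lower, together 6, against 3.88% of all genes. At 3 Day 10 were higher and 2 lower, together 12, against 7.37% (4.77% higher, 2.60% lower), with a median log2 fold change of 0.15 against 6.5e-05 over all genes. At 4 Day 5 were higher and none lower against 4.38%, and at 5 Day 3 were higher and none lower against 1.63%. With any 1 AA library left out, the 5 Day count was 0. Mitochondrial genes held 12.1% of the exon reads in replicate 2 of 5 Day, against 5.70% in replicate 3 and 6.25% to 7.48% in AA. The 5 Day calls thus rest in part on a library rich in mitochondrial reads.

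BAMBI had 29.6, 43.6 and 43.3 TPM in AA and 58.4, 54.4 and 46.0 TPM at 2 Day, 51.0, 59.9 and 53.4 TPM at 3 Day and 58.6, 56.5 and 55.0 TPM at 4 Day. It was above all AA libraries on these days, with log2 fold changes of 0.58 ± 0.14, 0.59 ± 0.14 and 0.57 ± 0.14 (adjusted p = 0.036, 0.019 and 0.035). SMAD7 had 14, 15.2 and 16.4 TPM in AA and rose to 24.4, 22.3 and 22.1 TPM at 3 Day (0.69 ± 0.11, adjusted p = 0.0018), with calls at 2 Day and 4 Day too. SMURF1, an E3 ligase that marks SMADs and receptors for breakdown, rose at 3 Day by 0.41 ± 0.07 and at 4 Day by 0.26 ± 0.07 (adjusted p = 0.0026 and 0.046).

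CDKN2B, TGFB3 and THBS1 rose at 3 Day. CDKN2B had 14.7, 19.2 and 26.0 TPM in AA and 32.8, 57.6 and 67.8 TPM at 3 Day (log2 fold change 1.5 ± 0.28, adjusted p = 0.0050). TGFB3, a TGF-beta ligand, had 11.9, 14 and 14 TPM and then 19.4, 41.2 and 42.4 TPM (1.47 ± 0.23, adjusted p = 0.0016). THBS1 had 5.25, 5.58 and 7.79 TPM and then 9.17, 15.3 and 18.7 TPM (1.31 ± 0.23, adjusted p = 0.0031). In all 3 genes the 3 Day libraries lay above AA, and replicate 1 was the lowest of them.

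BMP6 rose at 3 Day from 7.83, 8.88 and 12.5 TPM to 18.8, 25.2 and 15.1 TPM (1.12 ± 0.24, adjusted p = 0.012) and BMP7 by 0.40 ± 0.11 on the log2 scale (adjusted p = 0.035). ACVR2B, a type II activin receptor, was lower by 0.37 ± 0.10 (adjusted p = 0.040). None of CDKN2B, TGFB3, THBS1 and BMP6 passed at 2, 4 or 5 Day, and the difference between days was not tested. At 3 Day 6 of the 10 marker lists were separate from AA, more than the 3, 3 and 2 lists at 2, 4 and 5 Day. Cycling markers summed to 440 to 550 TPM against 681 to 739 TPM, choroid plexus markers to 510 to 1083 TPM against 1518 to 2364 TPM, striatal projection neuron markers to 164 to 187 TPM against 188 to 207 TPM and endothelial markers to 3.27 to 4.66 TPM against 4.79 to 8.45 TPM. Mesenchymal markers were higher (240.5 to 312.5 TPM against 170 to 217 TPM), as were neural crest markers (76.8 to 86.6 TPM against 62.6 to 64.8 TPM). No marker of these 6 lists was at 0 in all libraries of either group, although CDH5 and FOXD3 had a lowest value of 0 TPM in AA. Their part in these values was not tested.

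FST went the other way. It had 359, 421 and 486 TPM in AA, 175, 63.9 and 96.6 TPM at 2 Day, 525, 562 and 518 TPM at 3 Day, 167, 281 and 69.2 TPM at 4 Day and 281 and 79.1 TPM at 5 Day. The 2, 4 and 5 Day libraries lay below AA and the 3 Day libraries above it. The call was made at 2 Day (log2 fold change -1.81 ± 0.49, adjusted p = 0.0497) and not at 4 or 5 Day, where the libraries of a group differed widely.

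BMP5, a BMP ligand, was low throughout, with 1.38, 0.840 and 1.09 TPM in AA. It rose to 3.12, 2.21 and 1.62 TPM at 2 Day (1.18 ± 0.30, adjusted p = 0.041) and to 2.82 and 2.84 TPM at 5 Day (1.48 ± 0.33, adjusted p = 0.032). Its libraries lay above AA at every time, and at 3 and 4 Day the adjusted p was not under 0.05.

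**Figure D3:**
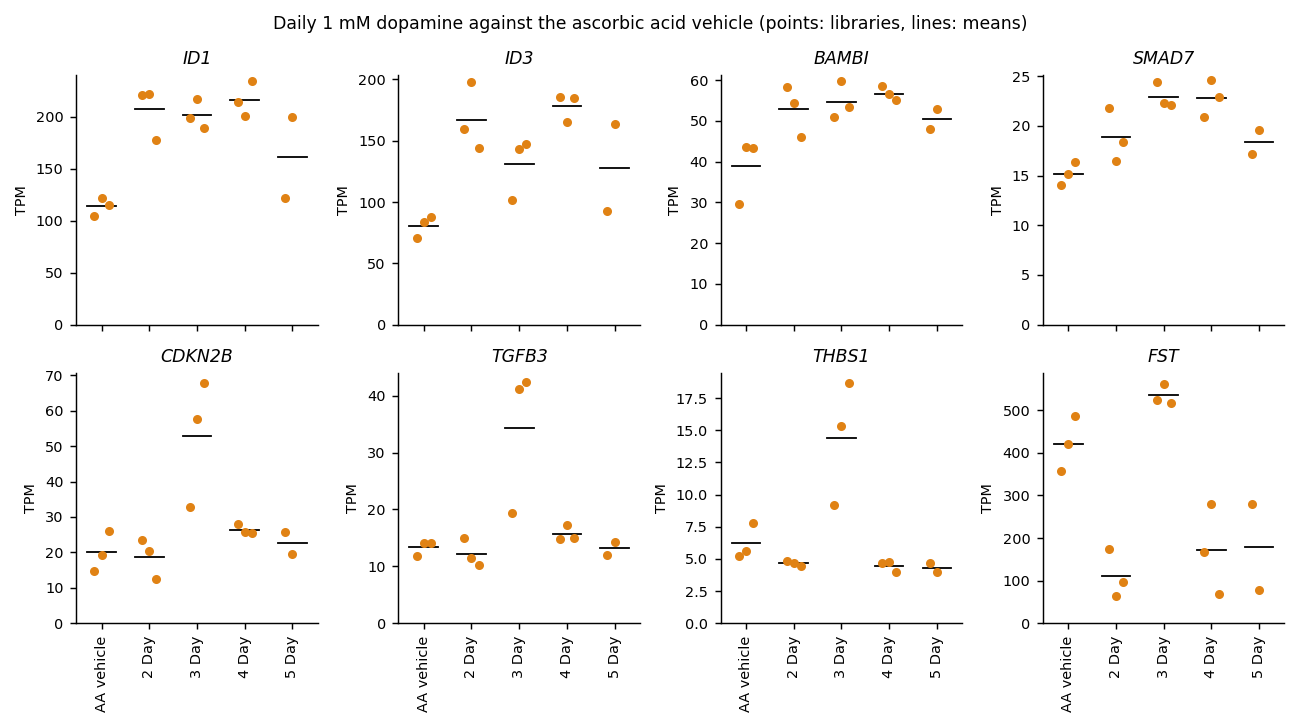
TPM (vertical axes, from 0) of 8 genes in each library of the time course, with AA and 2 to 5 Day along the horizontal axis and group means as lines. ID1, ID3, BAMBI and SMAD7 lie above AA over several days, CDKN2B, TGFB3 and THBS1 have their highest mean at 3 Day, and FST is below AA at 2, 4 and 5 Day.

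Among the agonists, THBS1 was the 1 member that rose with SKF82958, of 46 tested, where 0.0124% of all 16132 genes tested passed. It had 4.73, 5.72 and 7.77 TPM in water and 27.5, 33.8 and 31.1 TPM with SKF82958, far apart in every library (log2 fold change 2.28 ± 0.21, adjusted p = 0.026). The call was lost when any 1 of the SKF82958 or water libraries was left out. In a fit without the intron-rich quinpirole library, which is no part of this comparison, 4 rose and none fell, against 0.624% of all genes. There THBS1 rose by 2.28 ± 0.15, BMP4 by 1.12 ± 0.20, CDKN2B by 1.04 ± 0.15 and ID1 by 0.64 ± 0.08 (adjusted p = 6.1e-07, 0.013, 0.0019 and 0.00072).

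ID1 had 141, 136 and 146 TPM in water and 207, 245 and 246 TPM with SKF82958. CDKN2B had 14.1, 15.1 and 17.2 TPM and then 27.4, 42.1 and 30.5 TPM, and BMP4 5.20, 6.58 and 5.75 TPM and then 11.2, 15.8 and 13.2 TPM. None of these groups overlapped. Mesenchymal markers summed to 233.5 to 284 TPM with SKF82958 and 195 to 202 TPM in water, and radial glia markers to 2081 to 2368 TPM and 1866 to 2046 TPM. Both lists were separate, the other 8 overlapped, and their part in these values was not tested. FOS was already at 204 to 280 TPM in the water libraries, against 12.6 to 19.1 TPM in 1 mM PBS.

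With quinpirole edgeR's quasi-likelihood test called none of the 46 genes and 0% of all genes. At an unadjusted p under 0.05, 4 of them and 350 of all genes passed, and DESeq2 called 1 of them and 629 genes in all. Without replicate 1, 3 genes rose and none fell, against 0.184% of all genes, with n = 2. Mitochondrial genes held 11.6% of the exon reads in replicate 2, against 6.39% in replicate 3 and 7.88% to 8.19% in water. THBS1 had 18.5 and 16.9 TPM in replicates 2 and 3 (1.62 ± 0.17, adjusted p = 0.00017), CDKN2B 27.6 and 28.5 TPM (0.92 ± 0.17, adjusted p = 0.037) and ID1 182 and 203 TPM (0.50 ± 0.09, adjusted p = 0.046), all above water. Mesenchymal markers, at 213 and 218 TPM in these replicates, were above water as well, and their part was not tested. Both agonist comparisons share the water libraries, and SKF82958 and quinpirole were not tested against each other.

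**Figure D4:**
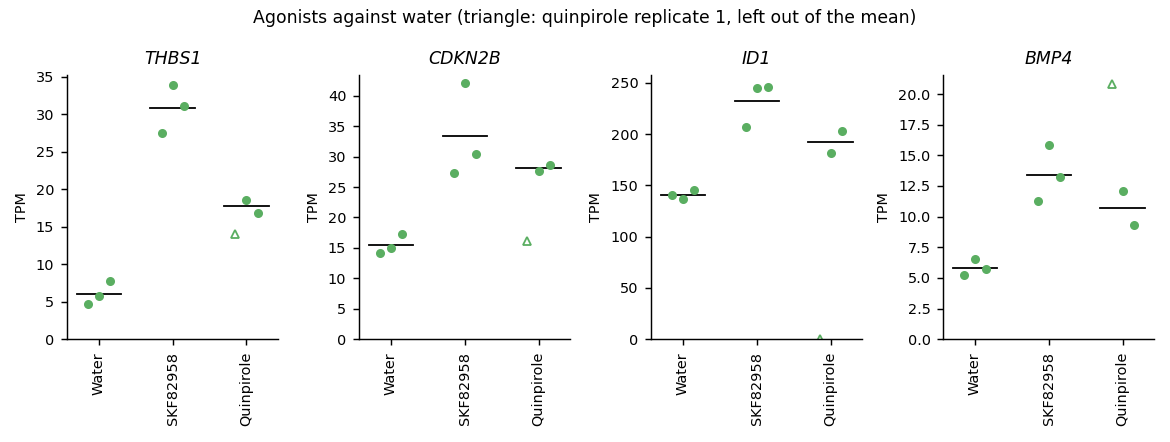
TPM (vertical axes, from 0) of THBS1, CDKN2B, ID1 and BMP4 in each library given water, SKF82958 or quinpirole, with means as lines that leave out replicate 1 of quinpirole (triangle). THBS1 lies at 27.5 to 33.8 TPM with SKF82958, above all water libraries, and at 18.5 and 16.9 TPM in the other two quinpirole libraries.

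Across the 14 comparisons with a control, several of which share control libraries, 30 of the 47 genes were called at least once and 17 never. The share of all genes called at least once was not counted, so these counts have no background to be read against. ID1 and ID3 were called higher in 7 each, BAMBI and SMAD7 in 6 each and TGIF1 in 4, and none of these was called lower. ID4 and THBS1 were called in both directions. Of the 6 receptor-activated and common SMADs only SMAD9 was called, lower at both 1 µM acute times. Among the 11 receptors and co-receptors, BAMBI apart, TGFBR1 was called higher on 1 occasion and ACVR1C, ACVR2A and ACVR2B lower on 1 each.

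**Figure D5:**
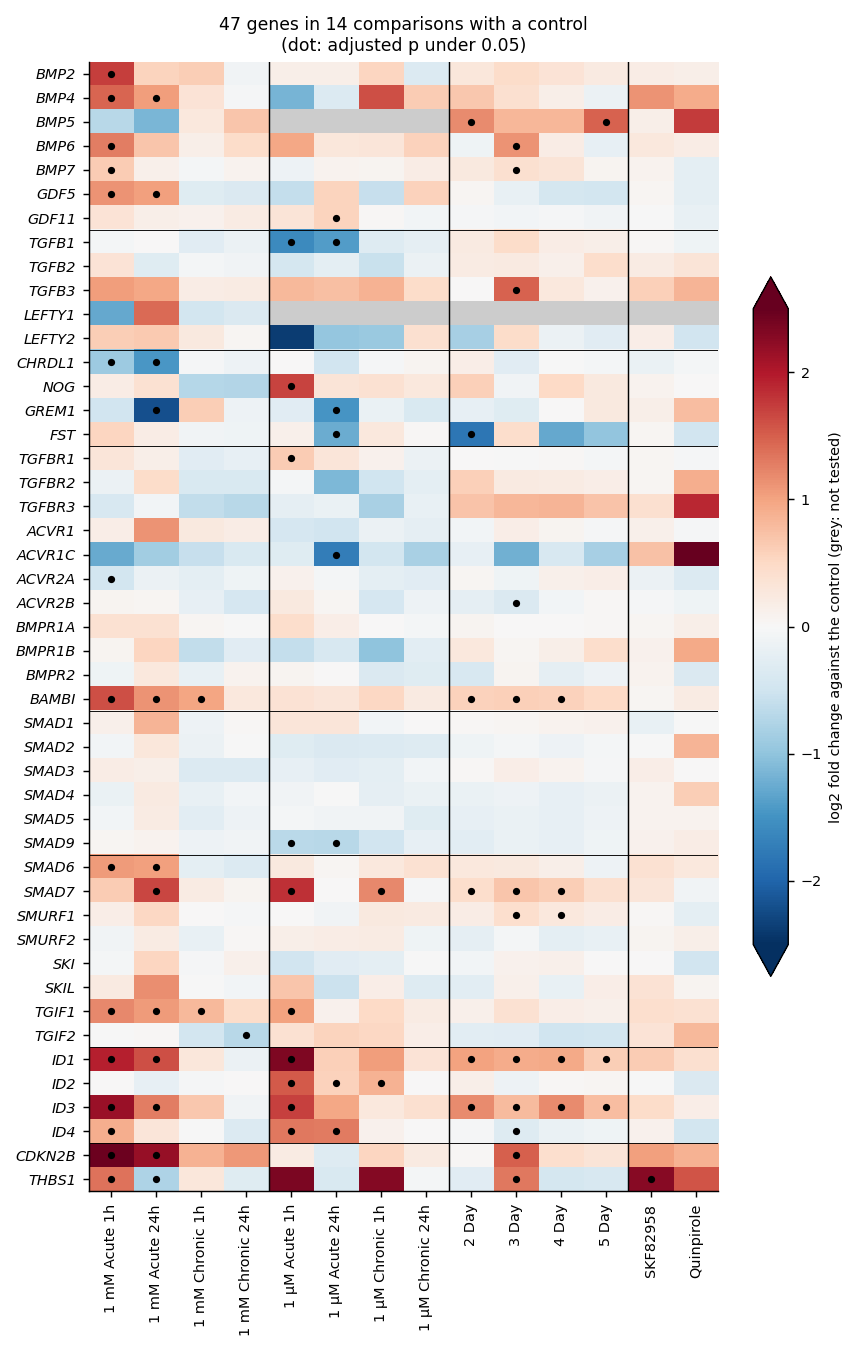
Log2 fold change (colour, red higher and blue lower, clipped beyond 2.5) of the 47 genes (rows, by role) in the 14 comparisons with a control (columns), with a dot at an adjusted p under 0.05 and grey where a gene was not tested. Dots form rows at ID1, ID3, BAMBI and SMAD7, and of the 6 receptor-activated and common SMADs SMAD9 alone has dots.

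A list of 91 further pathway genes was read in the same way. At 1 mM Acute 1h 15 of 81 tested were higher and 4 lower, together 19 or 23.5%, where 16.0% of all genes passed. By role the share called was 42.1% of 19 transcriptional targets, 26.7% of 15 antagonists and latency proteins and 21.7% of 23 regulators. It was 12.5% of 16 ligands and 0% of 8 receptors and co-receptors. At Acute 24h 12 were higher and 6 lower, together 22.2% of the list against 15.5%, and at Chronic 1h 1 each way, or 2.47% against 2.08%. CCN2, a matricellular growth factor gene, had a mean of 545 TPM at 1 mM Acute 1h against 20.2 TPM in PBS (log2 fold change 4.82 ± 0.56), and ATOH8 and RUNX1, which encode transcription factors, rose by 2.06 ± 0.30 and 1.88 ± 0.27. DCN, which encodes the TGF-beta-binding proteoglycan decorin, the ligand gene AMH and the ubiquitin ligase gene NEDD4L were lower by 1.02, 0.72 and 0.36 on the log2 scale. At 3 Day 16 of 77 were higher and none lower, which is 20.8% of the list against 7.37% of all genes, among them CCN2 (3.14 ± 0.34) and TGFBI (2.71 ± 0.48), both textbook TGF-beta targets. Of these 16, 10 were among the 18 transcriptional targets tested, 2 each among receptors and antagonists and 1 each among ligands and regulators. At 1 µM Acute 1h 6 of 73 were higher and 4 lower, together 13.7% against 5.77%. With SKF82958 none of 74 was called by edgeR's quasi-likelihood test or by DESeq2, where 0.0124% of all genes passed, and 4 had an unadjusted p under 0.05.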

How the data were processed

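RNA-seq was analysed in 53 libraries of 18 groups, assigned from the sample labels. The authors trimmed the reads, mapped them to GRCh38 in CLC Genomics Workbench using Ensembl genes (the submitters' processing notes name hg38) and deposited 1 table per library with whole-number read counts on exons, introns and genes and with TPM, which scale exon reads by exon length to the same total per library. Whether counting used strand is not stated, so reads of overlapping antisense genes cannot be told apart.

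Exon read counts as deposited were fitted with edgeR 4.0.16 in R 4.3.3 (TMM, filterByExpr with a minimum count of 10 and a minimum total of 15, quasi-likelihood F-test). All groups of an experiment shared 1 fit, p-values were adjusted by the Benjamini-Hochberg method over all genes tested, and a gene was called at an adjusted p under 0.05. SE was taken as the size of the log2 fold change over the square root of F. The dose difference came from 1 fit over both dose experiments. P-values measure the spread between libraries, which may be partly technical, since separate cultures are not stated. The steps were tested on simulated data.

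Library values are given for ID1 to ID4, SMAD6, SMAD7, SKIL, BAMBI, TGIF1 and THBS1 and for the genes (22 in all with any of these) that passed against a control with a log2 fold change of 1 or more in size and a mean TPM of 1 or more. SMAD1, SMAD9, ACVR1, ACVR2A, BMP7, LEFTY2 and TGIF2 were chosen after their values were seen. Of the further pathway genes, the 3 largest calls each way are named, except for an item that is not reported here. The 47 genes, the lists and the tests were chosen with earlier results of these data known. Alternatives were DESeq2 1.42.0 (test or size factors), no filter, total gene reads, only the groups compared, a replicate block, the study's call rule and leaving out libraries. The fit of SKF82958 without the intron-rich quinpirole library and the fit without the 4 libraries at 1 µM in which mitochondrial genes held over 10% of exon reads were added after seeing the data. Promoter letters were searched on both strands in RefSeq sequences.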

Additional observations from a re-analysis of the deposited data

Results flagged for a closer look

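The change at Acute 1h differed between the doses, by the test of the difference itself (1 mM minus 1 µM, log2 scale), for LEFTY2 (3.00), CDKN2B (2.30), BMP2 (1.59), TGFB1 (1.56), SMAD9 (0.75) and ID2 (-1.49). For LEFTY2 the 1 µM PBS libraries held at most 15 exon reads.

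In 6 cases, that of LEFTY2 among them, every treated library lay on one side of its PBS libraries at 1 mM and on the opposite side at 1 µM. How many of all genes did so was not counted. Separate groups were common, since at 1 mM Acute 1h 22 of the 47 genes lay above PBS in every library and 9 below. LEFTY2 at Acute 1h had log2 fold changes of 0.61 at 1 mM and -2.37 at 1 µM, and its difference passed as above. At Acute 24h ACVR1 had 1.13 and -0.47, SKIL 1.16 and -0.54, SMAD2 0.29 and -0.37 and SMAD9 0.088 and -0.69. At Chronic 1h the ubiquitin ligase gene SMURF2 had -0.19 and 0.21. The differences at Acute 24h were not tested, and that of SMURF2 was part of the Chronic 1h test, in which no gene of the 47 passed by edgeR's quasi-likelihood test. At Acute 24h the 1 mM values of ACVR1, SKIL and SMAD2 included replicate 1, which held their highest values, and its part in the opposite directions was not tested.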

How the results depend on the processing

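Of 1478 values recomputed for single genes, 1167 kept their direction and their side of the threshold, 303 lost the call, 4 gained one and 4 changed sign. The changes of sign were all of ID2 at 1 mM Acute 1h, a value near 0, which was -0.0034 with only the groups compared and lay between -0.0448 and 0.0545 when 1 library was left out. With total gene reads (exon and intron) the genes called numbered 26 at 1 mM Acute 1h, 31 at Acute 24h, 0 at Chronic 24h, 29 for chronic against acute at 1 mM, 2 for chronic against acute at 1 µM, 0 with SKF82958 and 17 for the dose difference at Acute 1h. With only the groups compared in the fit they numbered 26 and 0 at 1 mM Acute 1h and 24h, 17 and 2 at the chronic times, 34 for chronic against acute and 1 for Acute 24h against Acute 1h at 1 mM, 2, 0, 0 and 1 at 1 µM for Acute 1h, Chronic 1h, chronic against acute and Acute 24h against Acute 1h, 12 at 4 Day, 0 at 5 Day, 6 with SKF82958 and 3 and 1 for the dose differences at Acute 1h and Chronic 1h. DESeq2 called 6 and 3 at 1 mM Chronic 1h and 24h, 11 for Acute 24h against Acute 1h, 5, 7 and 9 at 1 µM for Chronic 1h, chronic against acute and Acute 24h against Acute 1h, 1 with quinpirole, and 10 and 3 for the dose differences. Without a filter on low counts the number was 0 at 1 mM Chronic 24h, 5 at 1 µM Acute 24h, 10 at 4 Day, 8 at 5 Day and 0 with SKF82958. The study's own call rule gave 0 and 0 at 1 mM Chronic 1h and 24h, 5 at 1 µM Acute 24h and 1 at 1 µM Chronic 1h. Without the 24 h library that stands apart the fits gave 27, 13 and 7 at 1 mM Acute 1h, Chronic 1h and Chronic 24h, 32 for chronic against acute and 11 and 2 for the dose differences, and without the intron-rich quinpirole library 4 rose with SKF82958. Without the 4 libraries rich in mitochondrial reads (added once the values had been seen) the counts at 1 µM were 17 at Acute 1h, 8 at Chronic 1h, 8 for chronic against acute and 9 for Acute 24h against Acute 1h, and 1 for the dose difference at Chronic 1h. A replicate block gave 1 and 0 at 1 mM Chronic 1h and 24h, 3 at 2 Day, 1 at 5 Day and 0 with SKF82958. Averaged over all pairs of an experiment, same-numbered libraries did not deviate together (mean correlation of 0.002 at 1 mM, 0.023 at 1 µM, -0.010 in the time course and -0.025 with the agonists). Not every pair exceeded 0.1, so the numbers were not taken as pairs. At 1 µM, however, single pairs reached 0.446. Replicate 2 of PBS, Acute 1h and Chronic 1h shared a high share of mitochondrial reads there (12.4%, 12.6% and 12.8%), which the unpaired tests at that dose did not model. Leaving out 1 library at a time gave 6 to 23 at 1 mM Acute 24h, 0 to 1 at Chronic 1h and at Chronic 24h, 9 to 13 for chronic against acute and 4 to 18 for Acute 24h against Acute 1h. At 1 µM the ranges were 2 to 4 at Acute 24h, 1 to 3 at Chronic 1h, 1 to 3 for chronic against acute and 1 to 5 for Acute 24h against Acute 1h. They were 2 to 4, 6 to 15, 3 to 4 and 0 to 3 from 2 Day to 5 Day, 0 with SKF82958 and 0 to 3 with quinpirole. The other counts stayed within 1.5 times, and the cause of these changes was not tested. The share of all genes that passed is given only where stated above, so counts without it cannot be set against that background. Where fewer libraries were fitted, a lone or paired group was assumed to vary like the others. With 2 or 3 libraries a group, changes of low genes such as BMP5, LEFTY1, LEFTY2 and THBS1 at 1 µM were poorly resolved.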
